A study of Mus musculus with 28 samples.

Results

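The mitochondrially encoded genes are the genes carried by the mouse mitochondrial genome, and they were taken as every row of the gene count table whose symbol starts with mt-. There were 37 such rows among 49492 rows, namely 13 protein genes, 2 rRNA genes and 22 tRNA genes. The RNA came from epithelium scraped by hand from the gastric corpus of mice that, by the name of the line, carry PPARD (the nuclear receptor PPAR delta) under the villin promoter, and of their wild-type littermates (WT). Villin-PPARD and WT mice were sampled at 10 weeks (5 and 5 mice), at 25 weeks (4 and 4 mice) and at 55 weeks (5 and 5 mice), with 1 library per mouse and 28 libraries in all. Libraries were made from poly(A)-selected RNA with chemistry that keeps no strand information and were read as pairs of 75 bases. No source used here states in which cells the transgene was active or how many founder lines were used.

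The mitochondrial genome is a small circle that is transcribed from both strands into long precursors, which are then cut mostly at the tRNA genes that lie between the others. Its protein genes encode core subunits of respiratory complexes I, III and IV and of ATP synthase, while complex II and all remaining subunits are made from nuclear genes. The rRNA genes encode the RNAs of the mitochondrial ribosome. In the gastric corpus, the acid-secreting parietal cells are known for their dense mitochondria, which supply the proton pump with ATP.

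Several of the mitochondrial genes have close copies in the nuclear genome, and this bears on how their reads can be counted. In the mouse GENCODE annotation (build GRCm38), a stretch of chromosome 1 (chr1:24611535-24616197, minus strand, 4663 bases) holds unprocessed pseudogenes that match, from the end of mt-Co1 to inside mt-Nd4, the same genes in the same order. Of the 15 protein and rRNA genes, 5 had over 97% of their 75-base windows in an annotated nuclear transcript without a mismatch, 4 had some, and 6 had none. The start of mt-Co2, which encodes subunit 2 of cytochrome c oxidase, is shown with its copies because reads of that length cannot tell the first pair apart. The mitochondrial window is chrM:7013-7087 (plus strand), Gm28661 lies at chr1:24614885-24615565 and Gm13341 at chr2:22587291-22587962, both on the minus strand. Capitals mark the bases that differ from mt-Co2, of which Gm28661 has 0 and Gm13341 has 2.
mt-Co2: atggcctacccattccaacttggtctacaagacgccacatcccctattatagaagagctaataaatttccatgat
Gm28661: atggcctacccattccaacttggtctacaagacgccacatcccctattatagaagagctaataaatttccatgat
Gm13341: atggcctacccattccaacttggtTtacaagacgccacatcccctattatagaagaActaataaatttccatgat

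Another pair of sequences is shown because the results below turn on them. mt-Atp8 (chrM:7766-7969, plus strand, 204 bases) encodes a small subunit of ATP synthase and, unlike its neighbours mt-Co2 and mt-Atp6, was well counted. The capitals mark the 43 bases that it shares with mt-Atp6 in another reading frame. mt-Tt (chrM:15289-15355, plus strand, 67 bases) encodes the threonine tRNA and directly follows mt-Cytb, with 0 bases between them.
mt-Atp8: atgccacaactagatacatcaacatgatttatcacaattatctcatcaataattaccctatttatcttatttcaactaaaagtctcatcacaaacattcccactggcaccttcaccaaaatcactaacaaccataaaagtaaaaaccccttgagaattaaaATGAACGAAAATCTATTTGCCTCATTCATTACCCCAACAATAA
mt-Tt: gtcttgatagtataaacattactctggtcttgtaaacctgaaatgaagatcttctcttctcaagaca

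Library totals ranged from 10982888 to 30891108 gene counts. The column names put the libraries in 2 library groups and 1 replacement: library group 1 holds all but 1 of the 25-week libraries, library group 2 holds all 55-week libraries, and the 10-week libraries of both genotypes are split between them, so age from 25 to 55 weeks and library group cannot be told apart. The 10-week WT libraries 2 and 3 were much more alike than any other replicate pair (chi-square per degree of freedom 3.95 between them, against 13.8 for the next pair), but differed beyond sampling noise and were kept apart. The mouse Ppard row was counted in every library, at 101 to 125 CPM in villin-PPARD and 65.7 to 83.6 CPM in WT at 10 weeks, at 79.7 to 99.6 CPM in villin-PPARD and 60.3 to 80.5 CPM in WT at 25 weeks, and at 84.7 to 102 CPM in villin-PPARD and 72.2 to 85.6 CPM in WT at 55 weeks (CPM are counts scaled to a common library size). All defining markers of parietal, chief and pit cells of the corpus were counted in every group.

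Mitochondrially encoded genes took a smaller share of the counts in villin-PPARD than in WT corpus at every age. At 10 weeks they held 1.57%, 2.17%, 4.82%, 3.42% and 3.20% of a library's gene counts in villin-PPARD mice, against 7.59%, 11.9%, 10.6%, 7.86% and 4.81% in WT mice. At 25 weeks they held 4.74%, 4.88%, 6.27% and 4.12% in villin-PPARD mice, against 5.71%, 14.9%, 10.3% and 11.2% in WT mice. At 55 weeks they held 5.24%, 2.01%, 2.17%, 3.24% and 3.56% in villin-PPARD mice, against 7.36%, 20.4%, 12.5%, 6.85% and 12.3% in WT mice. The genotypes were apart at 55 weeks and met through 1 library of each at 10 and 25 weeks, where villin-PPARD library 3 reached the lowest WT library. WT libraries were the more spread at each age, and WT library 2 at 55 weeks stood highest of all 28.

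The mean share was 3.04% ± 1.25 in villin-PPARD and 8.55% ± 2.78 in WT at 10 weeks (SD, n = 5 each), a difference of -5.52 percentage points (two-sided exact permutation test, p = 0.0159, adjusted over the 3 ages 0.0238). At 25 weeks it was 5.00% ± 0.908 in villin-PPARD and 10.5% ± 3.79 in WT (SD, n = 4 each), again -5.52 points, which did not pass the exact permutation test (p = 0.0571, the smallest possible being 0.0286). At 55 weeks it was 3.24% ± 1.30 in villin-PPARD and 11.9% ± 5.47 in WT (SD, n = 5 each), a difference of -8.65 points (exact permutation p = 0.00794, the smallest these groups allow, adjusted 0.0238). Within the library groups the 10-week libraries lay the same way, with 2.85% on average in villin-PPARD and 10.0% in WT in library group 1 (n = 3 each), and with 3.31% in villin-PPARD and 6.33% in WT in library group 2 (n = 2 each), without overlap in either. Since the share is relative to all other genes, and the tissue is a mixture, fewer cells rich in mitochondria and less mitochondrial RNA per cell cannot be told apart in these libraries.

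**Figure D1:**
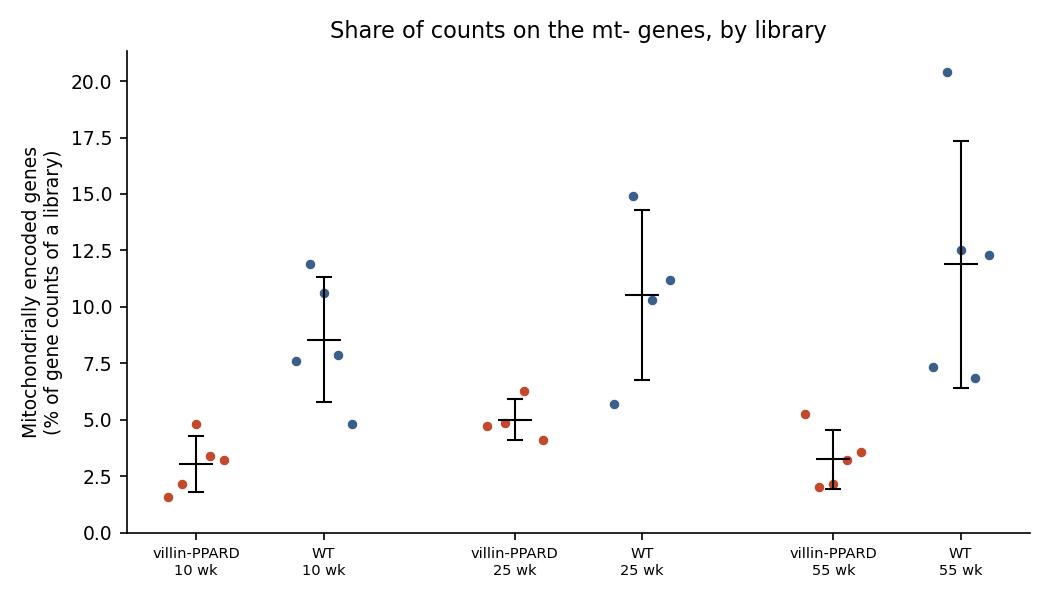
Share of a library's gene counts on the 37 mitochondrially encoded genes (%, vertical axis from 0), by genotype and age; points are libraries, and bars give the mean and SD of the group. All villin-PPARD libraries lie at or below 6.27%, and the WT libraries range up to 20.4%.

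Few members made up nearly all of these counts. The 6 highest, mt-Co1, mt-Cytb, mt-Nd1, mt-Nd5, mt-Nd4 and mt-Nd2, held 90.6% to 96.4% of the mitochondrial counts of a library, and the 2 rRNA genes 3.04% to 7.97%. Per kilobase of gene, mt-Co1 led with a mean of 17115 CPM per kb over the 28 libraries, followed by mt-Cytb at 12059 and mt-Nd1 at 9506 CPM per kb. mt-Nd2 (4935), mt-Nd5 (4262) and mt-Nd4 (3852 CPM per kb) came next, then mt-Atp8 (2831), mt-Rnr1 (1995), mt-Rnr2 (1561) and mt-Nd6 (431 CPM per kb). These levels divide by the whole annotated length, including windows that a nuclear transcript also holds without a mismatch. Such windows made up 61.5% of mt-Nd4 and 39.8% of mt-Co1, against 0% of mt-Cytb and mt-Nd1, and their part in this order was not tested. The rRNA levels are those left after poly(A) selection and do not measure the ribosomal RNA of the cell.

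The remaining 5 protein genes were nearly uncounted: mt-Atp6, mt-Nd3, mt-Co3, mt-Co2 and mt-Nd4l averaged 9.39, 6.73, 5.61, 4.78 and 0.110 CPM per kb. mt-Atp6 encodes the proton-channel subunit of ATP synthase, mt-Co2 and mt-Co3 core subunits of cytochrome c oxidase, and mt-Nd3 and mt-Nd4l membrane subunits of complex I. These are the same 5 genes that had over 97% of their 75-base windows in an annotated nuclear transcript without a mismatch, with 99.5% for mt-Atp6, 97.8% for mt-Nd3, 99.9% for mt-Co3, 99.5% for mt-Co2 and 98.7% for mt-Nd4l. The next highest, mt-Nd4 with 61.5% and mt-Co1 with 39.8%, were counted at 3852 and 17115 CPM per kb. Of the nuclear copies, Gm28661, identical to mt-Co2 over 681 bases, had 0 to 47 counts per library, Gm10222 (mt-Nd4l) 0 to 29, Gm10925 (mt-Atp6) 0 to 348 and Gm28437 (mt-Co3) 1 to 261. Gm28438, which matches mt-Nd3 with 1 mismatch, had 5 to 203 counts. No source used here states how reads that match several places were treated, and its part in the low counts of these 5 genes was not tested. 

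**Figure D2:**
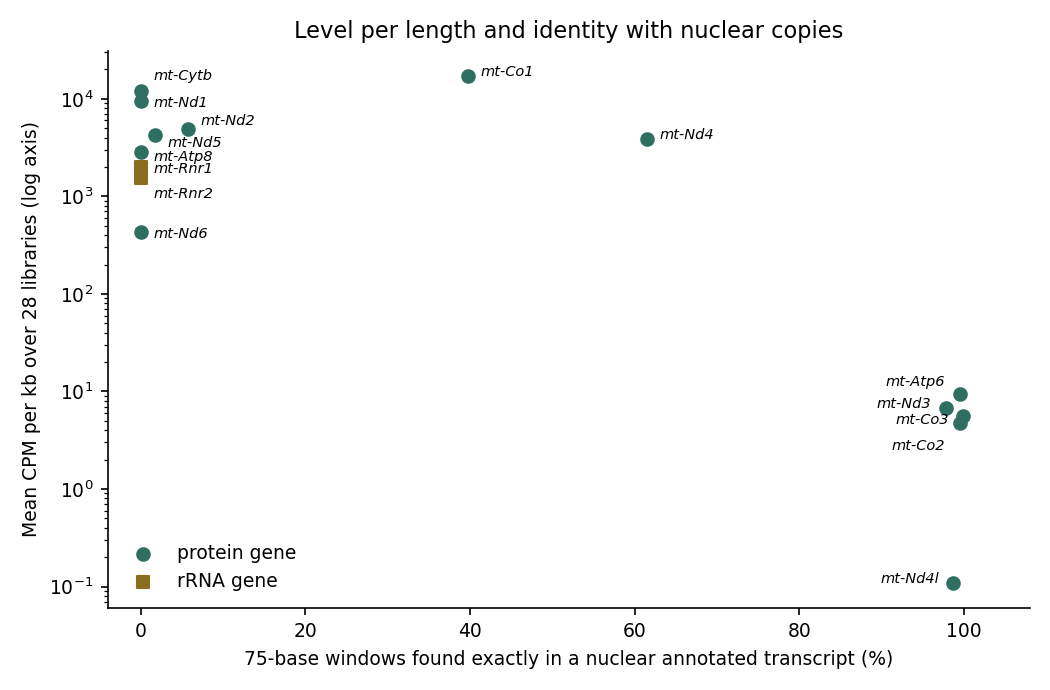
Mean level of the 13 protein and 2 rRNA genes over 28 libraries (CPM per kb, log axis) against the share of their 75-base windows that an annotated nuclear transcript also holds without a mismatch (%). The 5 genes over 97% lie at or below 9.39 CPM per kb, and all others at or above 431 CPM per kb.

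After the filter on low counts 20 members entered the test over 15812 genes: 12 protein genes, both rRNA genes and 6 tRNA genes. At 10 weeks 14 of the 20 were lower in villin-PPARD, 0 were higher, and the median log2 difference was -1.80, against -0.03 over all genes; 16.2% of all genes tested were called lower. At 25 weeks 11 were lower (18.6% of all genes), 0 higher, with a median of -1.48 against -0.01. At 55 weeks 16 were lower (27.6% of all genes), 0 higher, with a median of -2.44 against 0.03. The groups did not overlap, with villin-PPARD below, in 8 members at 10 weeks (11.1% of all genes), 5 at 25 weeks (12.4%) and 15 at 55 weeks (19.4%). A call here is an adjusted p under 0.05 in edgeR's quasi-likelihood test, with the Benjamini-Hochberg adjustment over all genes tested.

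The 6 highest members, all protein genes, were called lower at each age. mt-Co1 encodes the catalytic subunit of cytochrome c oxidase (complex IV). At 10 weeks it had 6926, 9114, 18208, 14380 and 14200 CPM in villin-PPARD, against 28986, 43746, 40260, 29845 and 19660 CPM in WT. At 25 weeks it had 18711, 18880, 22588 and 15544 CPM in villin-PPARD, against 22589, 55888, 38896 and 45306 CPM in WT. At 55 weeks it had 16310, 7234, 7548, 9995 and 11689 CPM in villin-PPARD, against 25677, 77635, 49741, 26394 and 44465 CPM in WT. The genotypes did not overlap at any age, although at 25 weeks the closest libraries were nearly level. These CPM carry a scaling factor per library (TMM), and a higher factor lowers them. The 55-week factors were 1.19 to 1.39 in villin-PPARD and 0.905 to 1.03 in WT, the same for every gene. Unscaled, the mean share of raw counts on mt-Co1 at 10 weeks was 1.20% in villin-PPARD and 3.03% in WT. Its 25-week shares were 1.92% and 3.65%, and its 55-week shares 1.36% and 4.25%, in the same order. Over 20 alternatives its 55-week log2 difference ran from -2.30 to -1.64. mt-Co1 was 2.59-fold lower at 10 weeks (log2 difference -1.37 ± 0.31 (SE), adjusted p = 0.0010), 2.15-fold lower at 25 weeks (-1.10 ± 0.34, adjusted p = 0.0109) and 4.24-fold lower at 55 weeks (-2.08 ± 0.31, adjusted p = 1.47e-06).

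mt-Cytb encodes cytochrome b, the only subunit of complex III that the mitochondrial genome carries. At 10 weeks it had 3133, 4450, 7806, 6086 and 5939 CPM in villin-PPARD, against 13884, 22933, 19965, 17008 and 12075 CPM in WT. At 25 weeks it had 8060, 8287, 10107 and 6752 CPM in villin-PPARD, against 14006, 33698, 20276 and 22609 CPM in WT. At 55 weeks it had 7084, 3059, 3351, 4364 and 4976 CPM in villin-PPARD, against 14438, 44276, 27575, 15700 and 24368 CPM in WT. The lowest WT library stood above the highest villin-PPARD library at every age. mt-Cytb was 3.13-fold lower at 10 weeks (-1.65 ± 0.29, adjusted p = 8.55e-05), 2.73-fold lower at 25 weeks (-1.45 ± 0.32, adjusted p = 9.33e-04) and 5.53-fold lower at 55 weeks (-2.47 ± 0.30, adjusted p = 4.91e-08).

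Of the complex I subunits, mt-Nd1 forms part of the quinone-binding module. It had 2004, 2599, 6553, 4814 and 4498 CPM in villin-PPARD at 10 weeks, against 10048, 16385, 14207, 11830 and 6232 CPM in WT. Its 25-week values were 6634, 6460, 8058 and 5076 CPM in villin-PPARD, against 6682, 21353, 14969 and 15673 CPM in WT. Its 55-week values were 4687, 2085, 2169, 3195 and 4066 CPM in villin-PPARD, against 8675, 27980, 15620, 7983 and 14189 CPM in WT. The groups overlapped through 1 WT library at 10 weeks and 1 at 25 weeks and were apart at 55 weeks. mt-Nd1 was 2.87-fold lower at 10 weeks (-1.52 ± 0.36, adjusted p = 0.00193), 2.24-fold lower at 25 weeks (-1.16 ± 0.40, adjusted p = 0.0221) and 4.59-fold lower at 55 weeks (-2.20 ± 0.37, adjusted p = 1.06e-05). The 25-week call of mt-Nd1 was lost in 6 of 18 alternatives (highest adjusted p = 0.0804), among them those without villin-PPARD library 1 or 4 or WT library 2.

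mt-Nd5, mt-Nd4 and mt-Nd2 encode the large proton-pumping subunits of the membrane arm of complex I. mt-Nd5 had 1655, 2378, 5257, 3358 and 3105 CPM in villin-PPARD at 10 weeks, against 8100, 13710, 11716, 8609 and 5398 CPM in WT. At 25 weeks mt-Nd5 had 5107, 5474, 5660 and 4129 CPM in villin-PPARD, against 5476, 20253, 12143 and 13557 CPM in WT. At 55 weeks mt-Nd5 had 3452, 1578, 1665, 2491 and 2649 CPM in villin-PPARD, against 8495, 28640, 13806, 7801 and 11985 CPM in WT. Only the 25-week groups overlapped, where WT library 1 sat among the villin-PPARD libraries. mt-Nd5 was 3.02-fold lower at 10 weeks (-1.59 ± 0.36, adjusted p = 0.00126), 2.52-fold lower at 25 weeks (-1.34 ± 0.40, adjusted p = 0.00942) and 5.98-fold lower at 55 weeks (-2.58 ± 0.37, adjusted p = 1.20e-06), the largest 55-week fold of the 6 highest members.

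mt-Nd4 had 1380, 1836, 3362, 2373 and 2290 CPM in villin-PPARD at 10 weeks, against 5997, 9544, 8419, 6472 and 4661 CPM in WT. At 25 weeks mt-Nd4 had 2892, 2845, 4312 and 2272 CPM in villin-PPARD, against 5282, 11482, 8721 and 9756 CPM in WT. At 55 weeks mt-Nd4 had 2761, 1261, 1415, 1828 and 1980 CPM in villin-PPARD, against 4824, 14969, 10433, 5907 and 9344 CPM in WT. As with mt-Co1 and mt-Cytb, no age showed an overlap. mt-Nd4 was 3.12-fold lower at 10 weeks (-1.64 ± 0.29, adjusted p = 8.96e-05), 2.86-fold lower at 25 weeks (-1.52 ± 0.32, adjusted p = 6.09e-04) and 4.92-fold lower at 55 weeks (-2.30 ± 0.30, adjusted p = 1.70e-07).

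mt-Nd2 had 946, 1333, 3887, 2268 and 2209 CPM in villin-PPARD at 10 weeks, against 5921, 9999, 8517, 6561 and 3178 CPM in WT. At 25 weeks mt-Nd2 had 3959, 3795, 4870 and 2793 CPM in villin-PPARD, against 3298, 13385, 8720 and 9228 CPM in WT. At 55 weeks mt-Nd2 had 2020, 902, 927, 1483 and 2028 CPM in villin-PPARD, against 4700, 16720, 8168, 4273 and 7331 CPM in WT. The 10-week overlap came from villin-PPARD library 3 and WT library 5, and the 25-week overlap from WT library 1. mt-Nd2 was 3.21-fold lower at 10 weeks (-1.68 ± 0.41, adjusted p = 0.00283), 2.25-fold lower at 25 weeks (-1.17 ± 0.46, adjusted p = 0.0442) and 5.60-fold lower at 55 weeks (-2.48 ± 0.43, adjusted p = 1.77e-05). Its 25-week call was lost in 10 of 18 alternatives (highest adjusted p = 0.147), including those without any of villin-PPARD libraries 1, 2 or 4 or of WT libraries 2, 3 or 4.

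**Figure D3:**
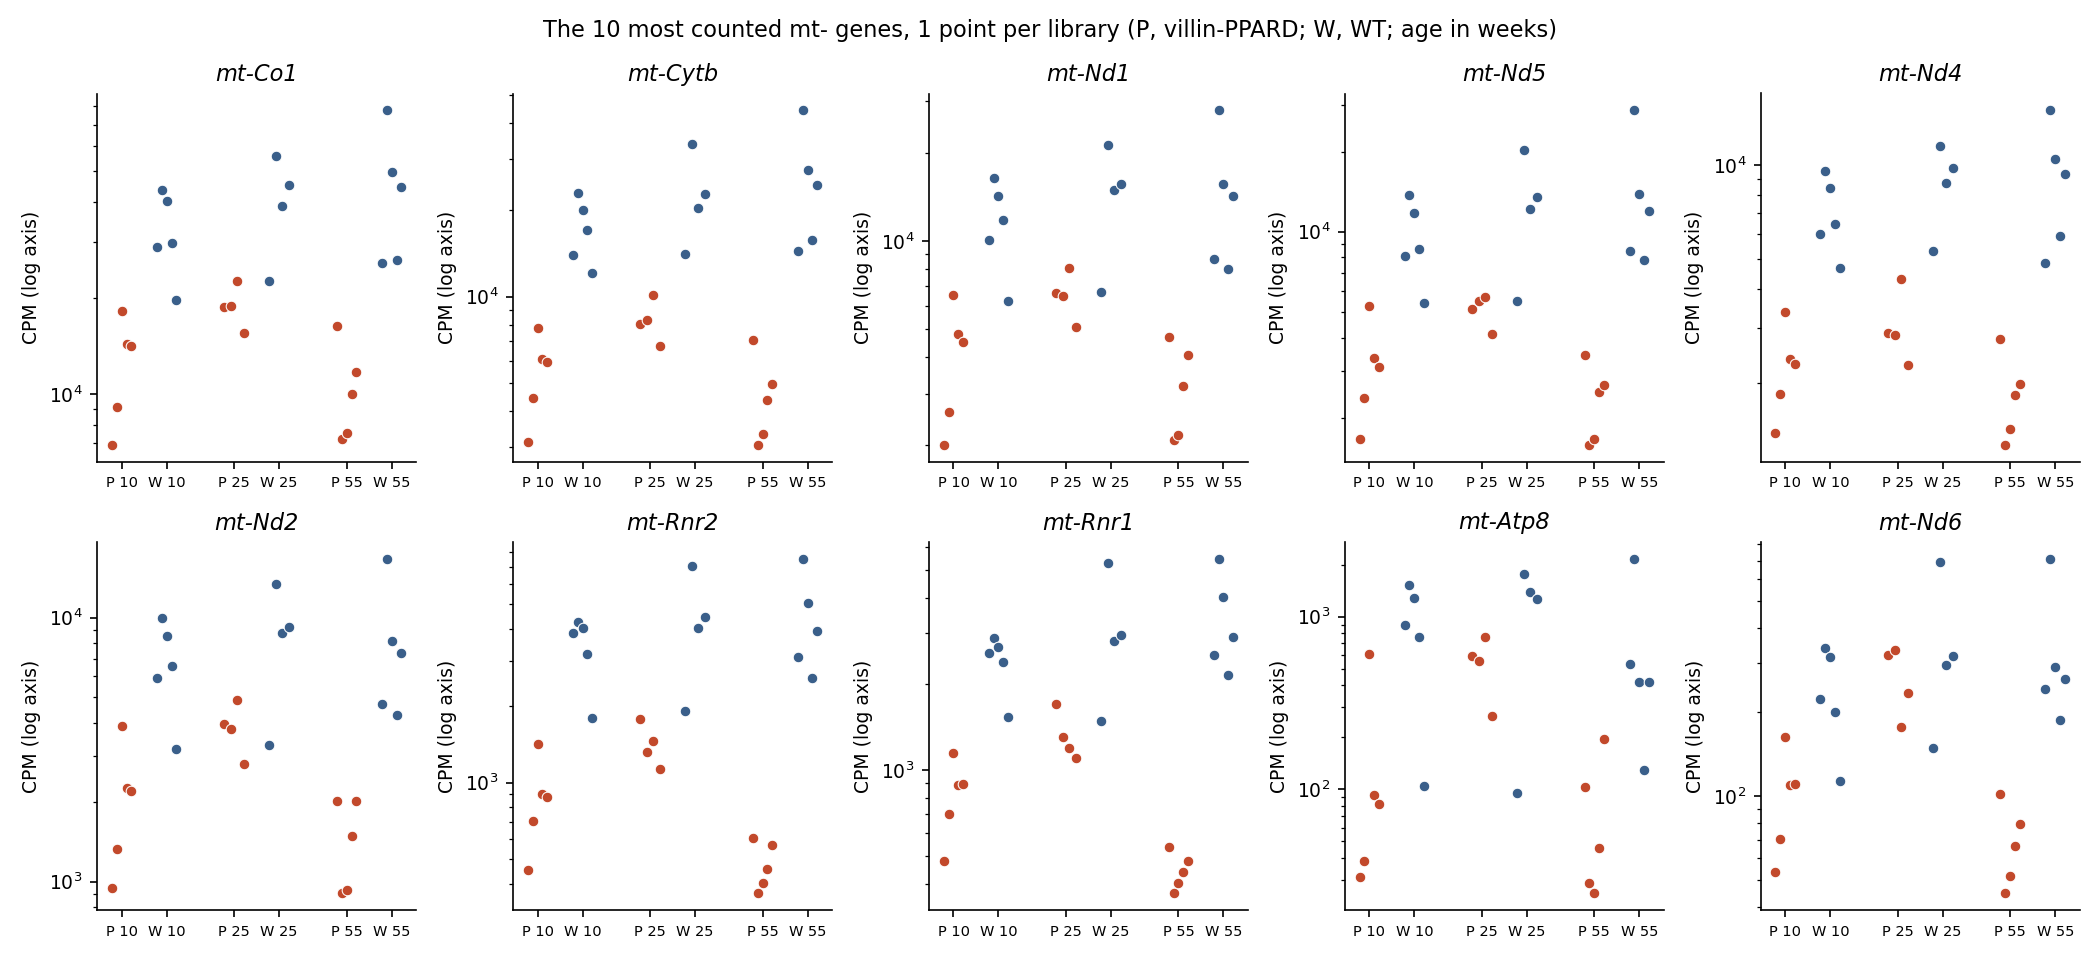
CPM (log axes) of the 10 most counted mitochondrially encoded genes, 1 point per library, villin-PPARD (P) and WT (W) at 10, 25 and 55 weeks. The red villin-PPARD points lie below the blue WT points in most panels, with mt-Atp8 spread most within groups and mt-Nd6 overlapping between genotypes at 25 weeks.

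Both rRNA genes were lower in villin-PPARD at each age and were furthest apart at 55 weeks. mt-Rnr2, the 16S rRNA of the large mitochondrial ribosomal subunit, had 455, 706, 1418, 899.6 and 874 CPM in villin-PPARD at 10 weeks, against 3849, 4255, 4028, 3198 and 1788 CPM in WT. At 25 weeks mt-Rnr2 had 1766, 1319, 1449 and 1134 CPM in villin-PPARD, against 1908, 7058, 4043 and 4440 CPM in WT. At 55 weeks mt-Rnr2 had 608, 368, 405, 459 and 572 CPM in villin-PPARD, against 3105, 7519, 5052, 2560 and 3928 CPM in WT. The genotypes did not overlap at any age, and the 55-week villin-PPARD libraries were low together. mt-Rnr2 was 3.93-fold lower at 10 weeks (-1.98 ± 0.32, adjusted p = 4.08e-05), 3.08-fold lower at 25 weeks (-1.62 ± 0.36, adjusted p = 8.87e-04) and 9.19-fold lower at 55 weeks (-3.20 ± 0.34, adjusted p = 7.49e-09).

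mt-Rnr1, the 12S rRNA of the small subunit, had 481, 704, 1144, 885 and 890.3 CPM in villin-PPARD at 10 weeks, against 2569, 2904, 2686, 2377 and 1534 CPM in WT. At 25 weeks mt-Rnr1 had 1700, 1304, 1197 and 1102 CPM in villin-PPARD, against 1486, 5298, 2832 and 2957 CPM in WT. At 55 weeks mt-Rnr1 had 537, 370.2, 404, 441 and 480.2 CPM in villin-PPARD, against 2522, 5475, 4030, 2142 and 2906 CPM in WT. Only at 25 weeks did a WT library fall among the villin-PPARD libraries. mt-Rnr1 was 2.94-fold lower at 10 weeks (-1.56 ± 0.27, adjusted p = 9.29e-05), 2.37-fold lower at 25 weeks (-1.25 ± 0.30, adjusted p = 0.00213) and 7.64-fold lower at 55 weeks (-2.93 ± 0.29, adjusted p = 1.53e-09).

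The genotype difference of the rRNA genes itself changed with age. From 10 to 55 weeks it moved by -1.38 ± 0.38 log2 units for mt-Rnr1 (adjusted p = 0.00544) and by -1.22 ± 0.44 for mt-Rnr2 (adjusted p = 0.0313), and from 25 to 55 weeks by -1.69 ± 0.41 (adjusted p = 0.00238) and -1.58 ± 0.47 (adjusted p = 0.0129). For the 6 highest protein genes the same change lay between -0.99 and -0.66 from 10 to 55 weeks and between -1.32 and -0.78 from 25 to 55 weeks, and 0 of 6 were called in either (lowest adjusted p = 0.115 and 0.0732). In all, 3 of 20 members were called for the change from 10 to 55 weeks, all negative (36.4% of all genes tested were called in either direction), and 4 of 20 for that from 25 to 55 weeks, all negative (28.9%). mt-Rnr1 stayed called in all 31 alternatives for 10 to 55 weeks, while mt-Rnr2 was lost in 9 of 31 (highest adjusted p = 0.135), including those without villin-PPARD library 3 or WT library 5 at 10 weeks, or without library 2 or 3 of either genotype at 55 weeks.

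Relative to the other mitochondrial counts, the rRNA genes also took less. At 55 weeks they made up 3.85% ± 0.592 of the mitochondrial counts in villin-PPARD and 6.46% ± 0.808 in WT (SD, n = 5 each), with no overlap between 3.04% to 4.50% and 5.73% to 7.69% (two-sided exact permutation p = 0.00794, adjusted over the 3 ages 0.0238). At 10 weeks they made up 5.41% ± 0.401 in villin-PPARD and 6.44% ± 0.893 in WT (SD, n = 5 each, exact permutation p = 0.0317, adjusted 0.0476), a difference that missed the threshold without villin-PPARD library 1, 3, 4 or 5, where its p reached 0.0635. At 25 weeks they made up 5.61% ± 1.04 in villin-PPARD and 6.21% ± 0.720 in WT (SD, n = 4 each, exact permutation p = 0.343). This ratio is taken within a library and does not depend on the scaling between libraries.

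**Figure D4:**
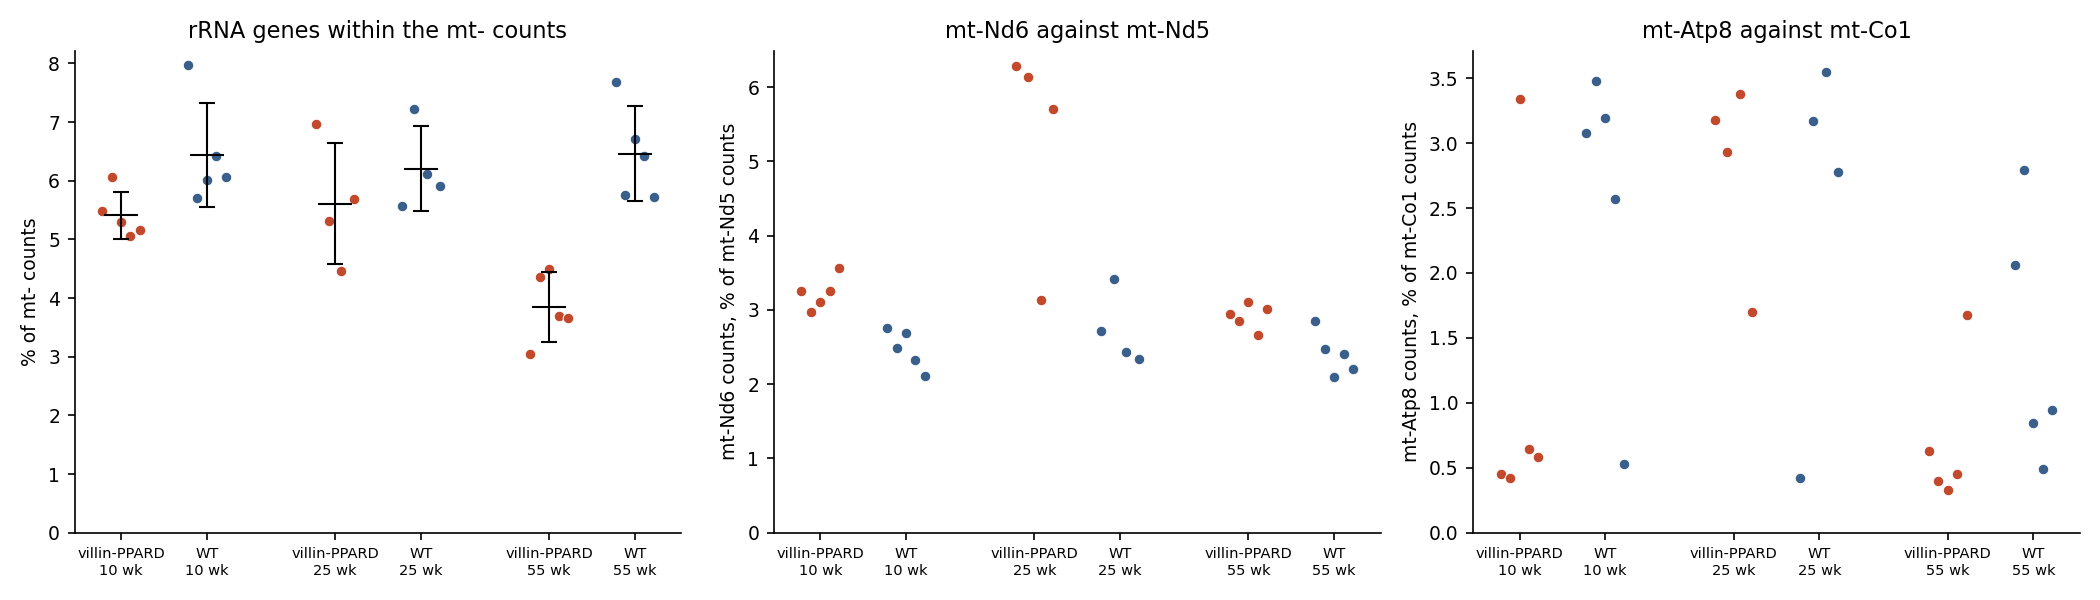
Counts of the rRNA genes as a percentage of all mitochondrial counts (left, with mean and SD), of mt-Nd6 as a percentage of mt-Nd5 (middle) and of mt-Atp8 as a percentage of mt-Co1 (right), by library. On the left the 55-week villin-PPARD libraries lie between 3.04% and 4.50%, below all WT libraries, 3 of 4 villin-PPARD libraries at 25 weeks are highest in the middle, and the right panel runs from 0.332% to 3.55% with a wide spread inside most groups.

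mt-Nd6, a complex I subunit, is the only protein gene on the minus strand of the genome (chrM:13552-14070) and overlaps mt-Nd5 by 14 bases. Since strand was not kept, reads from RNA of either strand over this interval cannot be told apart. At 10 weeks mt-Nd6 had 53.8, 70.6, 163, 109.5 and 111 CPM in villin-PPARD, against 223, 341, 315, 200.1 and 114 CPM in WT. At 25 weeks mt-Nd6 had 321, 336, 177 and 235 CPM in villin-PPARD, against 149, 693, 296 and 318 CPM in WT, and at 55 weeks 102, 44.9, 51.8, 66.4 and 79.8 CPM in villin-PPARD, against 242, 711, 290.3, 188 and 263 CPM in WT. The genotypes were mixed at 25 weeks and apart at 55 weeks.

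mt-Nd6 was 2.35-fold lower at 10 weeks (-1.23 ± 0.40, adjusted p = 0.0194) and 4.91-fold lower at 55 weeks (-2.30 ± 0.41, adjusted p = 3.62e-05), and at 25 weeks the difference was -0.44 ± 0.44 (adjusted p = 0.443). Its genotype difference moved by -1.85 ± 0.59 from 25 to 55 weeks (adjusted p = 0.0210), a call lost without the filter on low counts and without WT library 2 at 55 weeks (highest adjusted p = 0.0593). The 10-week call of mt-Nd6 was lost in 7 of 22 alternatives, including those without villin-PPARD library 1 or WT library 2 or 3 and those within either library group (highest adjusted p = 0.605). Against mt-Nd5 of the same library, mt-Nd6 had 6.28%, 6.14%, 3.13% and 5.70% of its counts in villin-PPARD at 25 weeks, whereas the other 24 libraries lay between 2.10% and 3.57%. At 10 weeks this percentage was 2.97% to 3.57% in villin-PPARD and 2.11% to 2.75% in WT, without overlap. The 25-week library at 3.13% was villin-PPARD library 3, which also carried the highest mitochondrial share of its group.

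Among the 10 most counted members, mt-Atp8 had the widest spread inside groups. The nearly uncounted mt-Atp6 and mt-Co3 also spread widely, from 0.378 to 12.5 CPM and from 0.0630 to 6.82 CPM in villin-PPARD at 10 weeks. At 10 weeks mt-Atp8 had 31.1, 38.3, 609, 92.3 and 82.3 CPM in villin-PPARD, against 892, 1523, 1284, 768 and 105 CPM in WT. At 25 weeks mt-Atp8 had 596, 554, 763 and 265 CPM in villin-PPARD, against 95.8, 1771, 1381 and 1261 CPM in WT, and at 55 weeks 103, 28.6, 25.0, 45.6 and 197 CPM in villin-PPARD, against 529, 2166, 419, 129 and 421 CPM in WT. The genotypes overlapped at every age, and libraries of the same group differed by more than 10-fold in 4 of the 6 groups.

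The mt-Atp8 difference was -2.42 ± 0.91 at 10 weeks (adjusted p = 0.0442), -1.05 ± 0.98 at 25 weeks (adjusted p = 0.414) and -3.20 ± 0.95 at 55 weeks (adjusted p = 0.00565). The 10-week call of mt-Atp8 was lost in 15 of 22 alternatives (highest adjusted p = 0.299), among them all that leave out 1 library other than villin-PPARD library 3 or WT library 5, and the 55-week call in 0 of 20. As a percentage of mt-Co1 counts, mt-Atp8 ran from 0.420% to 3.34% in villin-PPARD and from 0.533% to 3.48% in WT at 10 weeks, from 1.70% to 3.38% in villin-PPARD and from 0.424% to 3.55% in WT at 25 weeks, and from 0.332% to 1.68% in villin-PPARD and from 0.490% to 2.79% in WT at 55 weeks. mt-Atp8 had no exact window in an annotated nuclear transcript, but the chromosome 1 stretch leaves 233 bases between Gm10925 and Gm28661 (chr1:24614652-24614884) without a transcript. Gm10925 and Gm28661 match mt-Atp6 and mt-Co2, and the mitochondrial stretch between mt-Co2 and mt-Atp6 holds most of mt-Atp8. The sequence of that nuclear gap was not used here.

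Of the nearly uncounted protein genes, 4 were tested, and mt-Co2 was called at all ages. It averaged 1.03 ± 0.334 CPM in villin-PPARD and 6.10 ± 6.32 CPM in WT at 10 weeks (SD, n = 5 each), 1.57 ± 0.656 CPM in villin-PPARD and 4.90 ± 1.88 CPM in WT at 25 weeks (SD, n = 4 each), and 0.969 ± 0.429 CPM in villin-PPARD and 5.03 ± 1.75 CPM in WT at 55 weeks (SD, n = 5 each). Its log2 differences were -2.54 ± 0.47 (adjusted p = 1.85e-04), -1.59 ± 0.51 (adjusted p = 0.0156, and 0.0543 without villin-PPARD library 1) and -2.35 ± 0.46 (adjusted p = 9.69e-05). mt-Atp6, mt-Co3 and mt-Nd3 were not called at any age, with differences between -2.68 and -1.75. The closest were mt-Nd3 at 10 weeks (adjusted p = 0.0507) and mt-Co3 at 25 weeks (adjusted p = 0.0542), called in 8 of 22 and 6 of 18 alternatives. At 55 weeks mt-Atp6 did not overlap between genotypes (villin-PPARD was below without overlap in 19.4% of all genes). Its adjusted p there was 0.140, and 3 of 20 alternatives called it, among them DESeq2.

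These 3 genes were high together in the same 7 libraries. The 7 were defined by an mt-Atp6 level over 10 CPM, so the split of mt-Atp6 itself follows from that cut. mt-Atp6 had 12.5 CPM in villin-PPARD library 3 and 22.6, 16.1 and 29.8 CPM in WT libraries 1, 2 and 3 at 10 weeks, and 13.8 CPM in villin-PPARD library 3 and 26.1 and 29.5 CPM in WT libraries 3 and 4 at 25 weeks. The other 21 libraries had 0.149 to 4.88 CPM of mt-Atp6. In the 7 libraries mt-Co3 ranged from 6.82 to 33.0 CPM, against 0.0373 to 3.02 CPM in the other 21, and mt-Nd3 from 4.59 to 10.8 CPM, against 0 to 2.29 CPM. By the column names, 6 of these 7 libraries belong to library group 1 and the remaining 1 is the replacement library, so that no library of group 2, and none at 55 weeks, was among them. mt-Co2 overlapped between them, with 1.51 to 17.3 CPM in the 7 libraries and 0.577 to 7.17 CPM in the others. Of 7 nuclear copies compared, Gm28439 (mt-Nd4) and Gm13341 (mt-Co2) did not overlap, and the share of all genes without overlap in this split was not computed. Gm28438 (mt-Nd3) and Gm13340 (mt-Co1) were not among those compared. Their highest counts, 203 and 219, came in WT libraries 2 and 5 at 55 weeks, outside the high libraries. Gm28439 had 0.535 to 1.47 CPM in the 7 libraries and 0 to 0.431 CPM in the others. Gm13341 had 4.54 to 7.82 CPM in the 7 and 0.120 to 4.36 CPM in the others. The other 5 overlapped. Among them were Gm10925 (mt-Atp6) with 0.449 to 18.5 CPM in the 7 and 0 to 0.961 CPM in the others, Gm28437 (mt-Co3) with 0.624 to 12.8 CPM in the 7 and 0.0455 to 1.17 CPM in the others, and Gm28661 (mt-Co2) with 0.935 to 2.39 CPM in the 7 and 0 to 0.938 CPM in the others. The part of library preparation or read assignment in this split was not tested.

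mt-Nd4l, with 18 counts in all and at most 3 in a library, did not pass the filter and was not tested.

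Mature tRNAs carry no poly(A) tail. The annotated tRNA genes are 59 to 75 bases long, no longer than a read. The 22 tRNA genes together had 18 to 264 counts per library, 0.00353% to 0.0106% of the mitochondrial counts. Of them 6 passed the filter, 6 were below it with 1 to 92 counts in all (mt-Te, mt-Ty, mt-Ta, mt-Tc, mt-Tn and mt-Ts1), and 10 had 0 counts in every library (mt-Td, mt-Tf, mt-Tg, mt-Th, mt-Tk, mt-Tl1, mt-Tl2, mt-Tr, mt-Ts2 and mt-Tv). A count of 0 allows a level of up to 0.0971 CPM in the deepest library and 0.273 CPM in the shallowest (3 counts of the total, counting error only).

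The methionine tRNA gene mt-Tm and the proline tRNA gene mt-Tp were lower in villin-PPARD at all ages. mt-Tm averaged 0.462 ± 0.388 CPM in villin-PPARD and 1.65 ± 0.505 CPM in WT at 10 weeks (SD, n = 5 each), with log2 differences of -1.78 ± 0.41 at 10 weeks (adjusted p = 0.00143), -1.73 ± 0.49 at 25 weeks (adjusted p = 0.00630) and -2.08 ± 0.38 at 55 weeks (adjusted p = 2.73e-05). mt-Tp lies on the minus strand next to mt-Tt, and its differences were -1.98 ± 0.47 (adjusted p = 0.00185), -1.66 ± 0.50 (adjusted p = 0.00939, and 0.0599 at most in the alternatives that lost it, 1 of them without WT library 3) and -3.13 ± 0.50 (adjusted p = 3.83e-06). The glutamine tRNA gene mt-Tq was called at 10 weeks (-2.34 ± 0.65, adjusted p = 0.00622) and 55 weeks (-3.39 ± 0.68, adjusted p = 1.06e-04) and had -1.51 ± 0.65 at 25 weeks (adjusted p = 0.0657). The tryptophan tRNA gene mt-Tw was called at 55 weeks alone (-3.34 ± 0.79, adjusted p = 7.55e-04, with -1.81 ± 0.73 and -1.81 ± 0.80 at 10 and 25 weeks, adjusted p = 0.0580 and 0.0755). The isoleucine tRNA gene mt-Ti was not called at any age, with 0 counts in 8 libraries.

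mt-Tt was the member whose pattern departed from the rest. At 10 weeks it had 0.315, 0.360, 0.134, 0.263 and 0.220 CPM in villin-PPARD, against 0.303, 0.159, 0.339, 0.156 and 0.168 CPM in WT. At 25 weeks mt-Tt had 0.717, 0.913, 0.180 and 0.819 CPM in villin-PPARD, against 0.612, 1.46, 0.442 and 0.377 CPM in WT. At 55 weeks mt-Tt had 0.313, 0.0455, 0.0770, 0.261 and 0.157 CPM in villin-PPARD, against 1.15, 1.85, 0.802, 0.498 and 0.677 CPM in WT. The genotypes were mixed at 10 and 25 weeks and apart at 55 weeks.

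The mt-Tt difference was 0.11 ± 0.56 at 10 weeks (adjusted p = 0.903), -0.05 ± 0.50 at 25 weeks (adjusted p = 0.950) and -2.41 ± 0.46 at 55 weeks, where it was 5.33-fold lower in villin-PPARD (adjusted p = 4.39e-05). It moved by -2.52 ± 0.73 from 10 to 55 weeks (adjusted p = 0.00690) and by -2.37 ± 0.67 from 25 to 55 weeks (adjusted p = 0.00855), and both calls held in every alternative run. In WT mice mt-Tt was 4.10-fold higher at 55 than at 10 weeks (2.04 ± 0.47, adjusted p = 0.00569), with 0.995 ± 0.533 CPM at 55 weeks and 0.225 ± 0.0887 CPM at 10 weeks (SD, n = 5 each) and no overlap (5.89% of all genes were higher without overlap). These values rest on few reads, 1 to 25 counts per library, and within library group 2, with 2 WT mice at 10 weeks, the age difference of mt-Tt missed the threshold (adjusted p = 0.0816).

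**Figure D5:**
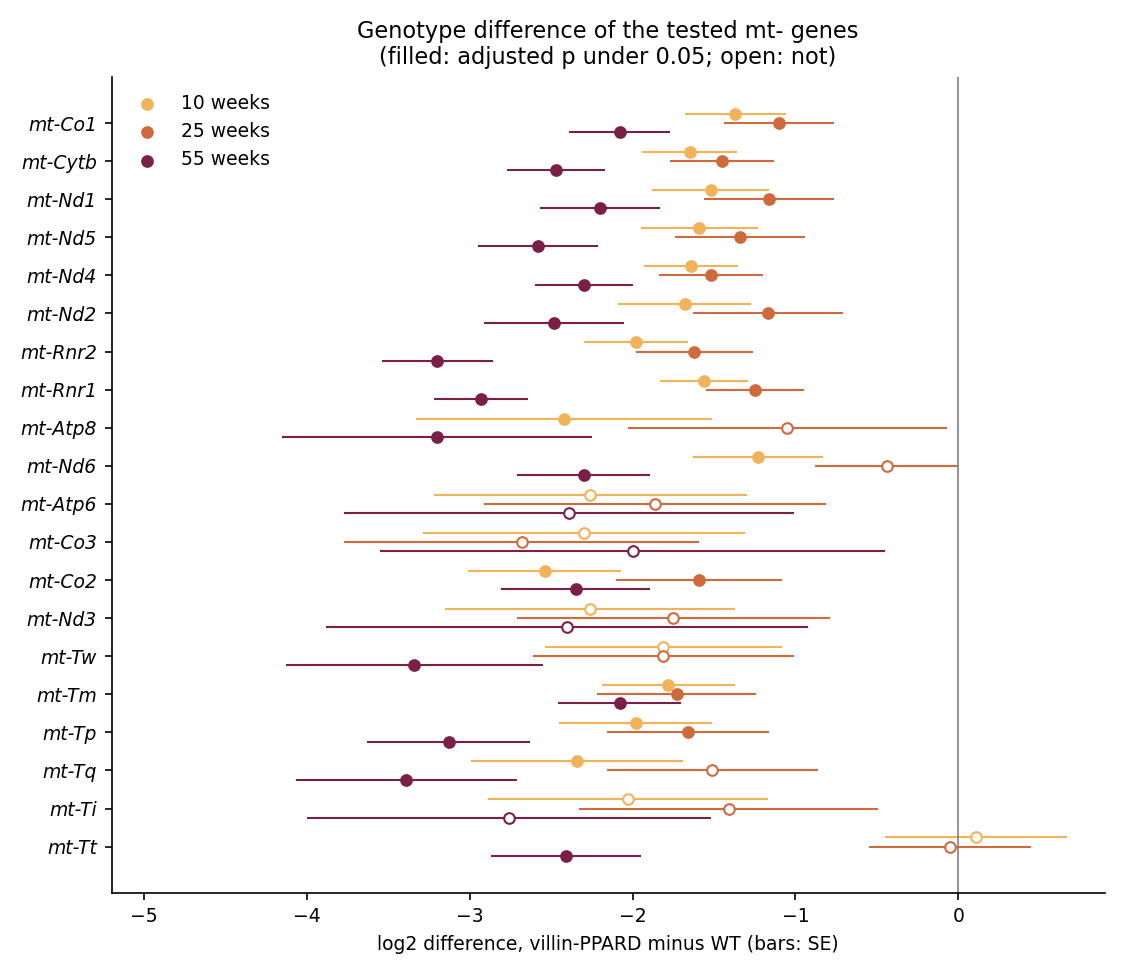
Log2 difference of villin-PPARD minus WT (horizontal axis, bars give the SE) for the 20 tested members at 10, 25 and 55 weeks, filled where the adjusted p was under 0.05. The 55-week points of the rRNA genes lie left of their 10- and 25-week points, and the mt-Tt points lie near 0 at 10 and 25 weeks and at -2.41 at 55 weeks.

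Within a genotype, age moved few members. Between 25 and 10 weeks 0 of 20 were called in villin-PPARD (2.81% of all genes tested were, 4 members had an unadjusted p under 0.05, and DESeq2 called 1 and limma-voom 4) and 0 of 20 in WT (0.0126% of all genes, 1 member with an unadjusted p under 0.05, DESeq2 called 0). mt-Nd6 was the closest in villin-PPARD, at 267 ± 74.7 CPM at 25 weeks (SD, n = 4) and 102 ± 42.5 CPM at 10 weeks (SD, n = 5), without overlap (4.96% of all genes were higher without overlap; 1.39 ± 0.42, adjusted p = 0.0608). The genotype difference changed from 10 to 25 weeks in 0 of 20 members (0.00632% of all genes were called, 0 members had an unadjusted p under 0.05, and DESeq2 called 0).

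Between 55 and 10 weeks 4 of 20 were lower and 0 higher in villin-PPARD, where 24.5% of all genes were called lower. The rRNA genes were among them, mt-Rnr1 with 447 ± 65.2 CPM at 55 weeks and 821 ± 246 CPM at 10 weeks (SD, n = 5 each; -0.88 ± 0.27, adjusted p = 0.00784) and mt-Rnr2 with 482 ± 104 CPM at 55 weeks and 871 ± 354 CPM at 10 weeks (-0.85 ± 0.31, adjusted p = 0.0250). The other calls, mt-Atp6 (-3.09) and mt-Nd3 (-3.40), were lost without villin-PPARD library 3 at 10 weeks. The mt-Atp6 call was also lost without any 1 of the 55-week libraries, and the mt-Nd3 call without 55-week library 2, 3 or 4. Both calls were lost with a library group term and within library group 2. Over the alternatives mt-Atp6 ran from -3.35 to -0.79 and mt-Nd3 from -3.74 to -0.83 (highest adjusted p 0.676 and 0.672). The mt-Rnr2 call was lost without library 3 at 10 weeks or library 2 or 3 at 55 weeks. It was also lost with a library group term (highest adjusted p over the alternatives 0.236). With library size as the only scaling 0 of the 4 were called (mt-Rnr1 then had adjusted p = 0.136). In WT, mt-Tt was higher and mt-Nd3 lower (-3.26 ± 1.01, adjusted p = 0.0345), against 6.43% and 6.26% of all genes called higher and lower. The mt-Nd3 call was lost without any of WT libraries 1, 2 or 3 at 10 weeks or 1, 2, 4 or 5 at 55 weeks. It was also lost with a library group term and within library group 2, and the mt-Nd3 difference ran from -3.60 to -0.39 over the alternatives. The 6 highest protein genes were not called in either genotype, with log2 differences of -0.53 to -0.25 in villin-PPARD and 0.27 to 0.57 in WT.

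The nuclear-encoded subunits of the same complexes were lower too, by a smaller amount. Of 10 nuclear subunits of complex IV, 9 were lower at 10 weeks, 10 at 25 weeks and 9 at 55 weeks, with median log2 differences of -0.65, -0.83 and -0.77. Cox4i1, a regulatory subunit, had 241 ± 15.2 CPM in villin-PPARD and 428 ± 27.1 CPM in WT at 10 weeks (SD, n = 5 each), and 172 ± 6.20 CPM in villin-PPARD and 317 ± 54.1 CPM in WT at 55 weeks (-0.88 ± 0.12, adjusted p = 1.83e-07). Cox7b at 55 weeks was 1.92-fold lower (adjusted p = 5.99e-09), Cox7a2 1.74-fold (adjusted p = 5.15e-08) and Cox6b1 1.71-fold (adjusted p = 2.03e-07).

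Among 9 nuclear subunits of complex III, 6, 6 and 8 were lower at the 3 ages (medians -0.32, -0.67 and -0.65), led at 55 weeks by Uqcrb (1.93-fold, adjusted p = 1.81e-08) and Uqcrh (1.78-fold, adjusted p = 2.34e-09). Of 7 nuclear core subunits of complex I, 5, 7 and 7 were lower (medians -0.39, -0.51 and -0.51), with Ndufs3 at 35.2 ± 1.66 CPM in villin-PPARD and 51.2 ± 4.87 CPM in WT at 55 weeks (SD, n = 5 each; 1.46-fold, adjusted p = 7.73e-05). Of 15 nuclear ATP synthase genes 13 were lower at each age (medians -0.37, -0.60 and -0.47), Atp5l by 1.72-fold at 55 weeks (adjusted p = 8.39e-09). Complex II, all of whose subunits are nuclear, had 3, 4 and 3 of 4 lower (medians -0.29, -0.40 and -0.41). At 55 weeks Sdhb, its iron-sulfur subunit, was 1.58-fold lower (adjusted p = 1.69e-06). The membrane anchors Sdhc and Sdhd were 1.43-fold (adjusted p = 2.17e-04) and 1.23-fold lower (adjusted p = 0.00197). Sdha, the flavoprotein, had 161 ± 13.5 CPM in villin-PPARD and 151 ± 13.2 CPM in WT (SD, n = 5 each; 0.09 ± 0.09, adjusted p = 0.403). None of these 45 genes was called higher in villin-PPARD at any age, and the share of all genes called lower was 16.2%, 18.6% and 27.6%.

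Of 18 genes for transcription and upkeep of the mitochondrial genome 3, 3 and 5 were lower and 0, 0 and 2 higher at 10, 25 and 55 weeks, where 16.2%, 18.6% and 27.6% of all genes were called lower, with medians of -0.19, -0.13 and 0.04. Polg, the catalytic subunit of the mitochondrial DNA polymerase, had 54.2 ± 1.96 CPM in villin-PPARD and 71.4 ± 7.14 CPM in WT at 55 weeks (SD, n = 5 each; -0.40 ± 0.08, adjusted p = 7.04e-05), and Polg2, its accessory subunit, was 1.47-fold lower (adjusted p = 0.00208). Polrmt, the mitochondrial RNA polymerase, and Tfam, the factor that packages the genome and starts its transcription, are named here although chosen after their values were seen. Polrmt was called at 25 weeks alone (-0.56 ± 0.14, adjusted p = 0.00293), and at 55 weeks its difference was 0.20 ± 0.13 (adjusted p = 0.172). Tfam was not called at any age, with log2 differences of -0.17, 0.17 and 0.21.

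Genes for processing and decay of mitochondrial RNA went both ways: of 25, 4, 4 and 9 were higher and 5, 6 and 4 lower at the 3 ages, where 34.0%, 39.6% and 59.3% of all genes were called in either direction. Pnpt1, the polynucleotide phosphorylase that degrades RNA inside mitochondria and is also induced by interferon, was higher in villin-PPARD throughout, by 2.21-fold at 10 weeks (50.2 ± 8.91 CPM in villin-PPARD and 22.7 ± 2.12 CPM in WT, SD, n = 5 each, adjusted p = 3.39e-08), 3.51-fold at 25 weeks (adjusted p = 4.33e-11) and 2.08-fold at 55 weeks (45.2 ± 4.01 CPM in villin-PPARD and 21.7 ± 2.60 CPM in WT, SD, n = 5 each, adjusted p = 2.22e-08). Elac2, which cuts the 3′ ends of tRNAs out of the precursor, was higher at 55 weeks (33.4 ± 2.33 CPM in villin-PPARD and 23.8 ± 1.78 CPM in WT, SD, n = 5 each; 1.40-fold, adjusted p = 2.63e-05). Fastk, whose mitochondrial form is known to be needed for mt-Nd6 RNA, was lower at each age, with 46.0 ± 5.24 CPM in villin-PPARD and 60.5 ± 5.97 CPM in WT at 10 weeks (SD, n = 5 each; adjusted p = 0.0122), 38.0 ± 8.15 CPM in villin-PPARD and 63.1 ± 10.3 CPM in WT at 25 weeks (SD, n = 4 each; adjusted p = 1.28e-04) and 36.3 ± 4.49 CPM in villin-PPARD and 62.5 ± 8.52 CPM in WT at 55 weeks (SD, n = 5 each; adjusted p = 2.35e-06).

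Markers of the mitochondria-rich parietal cell were lower in villin-PPARD as well. Of 16 parietal genes 10, 11 and 12 were lower and 1, 1 and 1 higher at 10, 25 and 55 weeks (16.2%, 18.6% and 27.6% of all genes were called lower), with medians of -0.54, -0.68 and -2.49. Their summed level was 14171 to 16581 CPM in villin-PPARD and 19438 to 21926 CPM in WT at 10 weeks, 8561 to 14325 CPM in villin-PPARD and 15903 to 22496 CPM in WT at 25 weeks, and 2495 to 3827 CPM in villin-PPARD and 9609 to 13680 CPM in WT at 55 weeks, without overlap at any age and with no marker at 0 in a whole group. Atp4a, the catalytic subunit of the proton pump, had 6589 ± 582 CPM in villin-PPARD and 10715 ± 649 CPM in WT at 10 weeks (SD, n = 5 each; 1.63-fold, adjusted p = 0.0257) and 185 ± 89.4 CPM in villin-PPARD and 4874 ± 1196 CPM in WT at 55 weeks (26.4-fold, adjusted p = 2.55e-14). From 10 to 55 weeks the change of the genotype difference was called negative in 12 and positive in 2 of the 16 parietal genes (median -2.08), where 36.4% of all genes were called in either direction. The parietal sums of the 55-week libraries stood apart from those of the younger libraries in both genotypes, so a relation across libraries mixes in age. Over the 14 libraries of each genotype, mitochondrial share and parietal sum had Pearson r = 0.09 in villin-PPARD (permutation p = 0.759) and -0.47 in WT (permutation p = 0.0842). Within library groups 1 and 2, r was -0.34 and -0.02 in villin-PPARD (n = 7 each) and -0.69 and -0.62 in WT (n = 6 and 7). These values describe libraries alone, and the part of parietal cells in the mitochondrial values was not tested.

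Markers of other cell types gave the following counts at 10, 25 and 55 weeks, where 34.0%, 39.6% and 59.3% of all genes were called in either direction and 16.2%, 18.6% and 27.6% lower. Their part in the mitochondrial values was not tested. Of 6 chief cell genes 3, 4 and 6 were lower, and their sum at 55 weeks was 313 to 1350 CPM in villin-PPARD and 25894 to 98970 CPM in WT. Of 4 pit cell genes 0, 1 and 4 were lower and 1, 0 and 0 higher, with 33925 to 68440 CPM in villin-PPARD and 134936 to 187933 CPM in WT at 55 weeks. Endocrine markers were lower in 2, 4 and 5 of 6 genes, and erythroid markers in 2, 4 and 4 of 4 genes, the erythroid sum at 55 weeks being 9.90 to 22.6 CPM in villin-PPARD and 41.9 to 156 CPM in WT. Of 8 leukocyte genes 1, 1 and 7 were higher, with 43.8 to 80.5 CPM in villin-PPARD and 28.8 to 32.7 CPM in WT at 55 weeks, and S100a8 was at 0 in villin-PPARD at 10 and 25 weeks. Of 5 endothelial genes 1, 1 and 2 were higher and 0, 1 and 1 lower, with a sum of 66.3 to 87.7 CPM in villin-PPARD and 13.1 to 36 CPM in WT at 10 weeks. The median log2 difference of the endothelial genes was 0.04, -0.59 and 0.49 at the 3 ages, so the 10-week sum does not stand for all of them. Neck cell genes were higher in 1, 2 and 1 and lower in 0, 0 and 2 of 4, smooth muscle genes lower in 0, 0 and 3 of 6, and fibroblast genes lower in 0, 0 and 1 of 6.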

How the data were processed

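RNA-seq libraries of 28 mice were analysed. The deposited table holds raw counts per gene; per the submitters' processing notes, reads were processed with TopHat2 (2.0.14), HTSeq (0.6.1) and DESeq2 on build mm10. Poly(A) selection and the treatment of reads with several matches, which is not given in the sources used here, can both affect these counts. Column names gave each library's sample and library group. The mitochondrial share was the percentage of raw counts on mt- rows, tested by two-sided exact permutation. All genes passing filterByExpr were fitted together over 28 libraries with edgeR (4.0.16) quasi-likelihood (TMM scaling, robust, 10 contrasts, Benjamini-Hochberg adjustment, called under 0.05); SE is the log2 difference over the square root of F, and CPM are TMM-scaled. The fit was tested on simulated data. Windows of 75 bases were compared with GENCODE transcripts by BLAST (2.17.0). The 6 mt- genes with the highest mean CPM are given per library, other members by group, and from each list up to 4 genes with the lowest adjusted p at 55 weeks; the per-library values of the rRNA genes, mt-Nd6, mt-Atp8, mt-Atp6 and mt-Tt were chosen after their values were seen. Members and lists were chosen with earlier results of these data known. P-values set differences against the spread between mice of 1 study.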

Additional observations from a re-analysis of the deposited data

Results flagged for a closer look

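Among 132 groups of 4 or 5 libraries, 14 held a library far from its group, where chance alone gives about 1 in 20. The groups of different members share the same libraries and are not independent, so this count is no test against chance. Villin-PPARD library 3 stood high at 10 weeks for mt-Atp6 (12.5 CPM), mt-Atp8 (609 CPM), mt-Co3 (6.82 CPM) and mt-Nd3 (4.59 CPM), and villin-PPARD library 3 at 25 weeks for mt-Atp6 (13.8 CPM), mt-Co3 (7.23 CPM) and mt-Nd3 (5.03 CPM). WT library 2 at 10 weeks stood high for mt-Co2 (17.3 CPM) and WT library 5 at 10 weeks low for mt-Tm (0.756 CPM). WT library 2 at 55 weeks stood high for mt-Atp8 (2166 CPM), mt-Nd5 (28640 CPM), mt-Nd6 (711 CPM) and mt-Tq (2.37 CPM). Villin-PPARD library 4 at 55 weeks stood low for mt-Atp6 (0.149 CPM).

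The genotype difference changed with age, by edgeR's interaction test, in 7 cases: from 10 to 55 weeks by -1.38 for mt-Rnr1, -1.22 for mt-Rnr2 and -2.52 for mt-Tt, and from 25 to 55 weeks by -1.85 for mt-Nd6, -1.69 for mt-Rnr1, -1.58 for mt-Rnr2 and -2.37 for mt-Tt (log2 units). These are 3 and 4 of 20 members, where 36.4% and 28.9% of all genes tested were called in either direction.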

How the results depend on the processing

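The genotype counts of called members kept their direction and lay within 1.5 times of the reported count in all alternatives but 1: within library group 2 at 10 weeks (2 mice each), 3 were called. Of the 20 members tested in the fit over all libraries, only mt-Rnr1 and mt-Rnr2 were called there. For 25 against 10 weeks in villin-PPARD, library size alone, DESeq2 and the fit of only the groups compared called 1 each and limma-voom 4. For 55 against 10 weeks, villin-PPARD had 0 with library size alone, 1 without the filter, 1 with a library group term and 2 with limma-voom, and WT had 1 without the filter, 1 with a library group term, 4 with DESeq2, 1 with limma-voom, 1 with WT libraries 2 and 3 merged and 0 within library group 2, the last chosen after seeing the data. The causes were not tested.

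Leaving out 1 library gave, for the share, -6.45 to -4.68, -7.12 to -4.04 (p = 0.0286 by exact permutation without WT library 1) and -9.91 to -6.51 points at 10, 25 and 55 weeks. For the rRNA share it gave -1.21 to -0.641, -1.05 to -0.213 and -2.79 to -2.31 points. Called members ranged 12 to 19, 8 to 14 and 16 to 17 by genotype, 0 to 2 and 0 to 0 at 25 against 10 weeks, 1 to 5 and 1 to 4 at 55 against 10 weeks (villin-PPARD and WT), and 0 to 0, 2 to 4 and 3 to 6 for the changes from 10 to 25, 10 to 55 and 25 to 55 weeks.

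Replicate numbers did not pair the mice: 3 of 14 same-numbered pairs correlated above 0.1 (-0.42 to 0.23). With a replicate block the exact permutation p was 0.0625 for the shares (-5.52 and -8.65 points at 10 and 55 weeks), 0.125 and 0.0625 for the rRNA shares (-1.02 and -2.61); 5 pairs cannot give less than 0.0625. Direction turned for mt-Tt, never called there, at 10 weeks (-0.03 within library group 1, -0.03 without villin-PPARD library 2, -0.00 without WT library 4, up to 0.31 over the left-out libraries) and 25 weeks (0.10 with library size alone, 0.48 with limma-voom, 0.28 without villin-PPARD library 3, 0.43 without WT library 2, down to -0.27 over the left-out libraries), and for mt-Nd6 at 25 weeks (0.07 without WT library 2, down to -0.70 over the left-out libraries). At 10 weeks, within library group 2, only mt-Rnr1 and mt-Rnr2 of the well counted members stayed called. The tRNA genes together had 18 to 264 counts per library, so counting error weighs most on their values.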
